A study of Mus musculus with 12 samples.

Results

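Interferon-stimulated genes are genes whose transcription rises when a cell senses interferon. A list of 42 such genes was followed by symbol, and 39 of them had 10 or more counts in at least 3 of the 12 libraries. All 39 were tested, among 13281 tested genes of the 24421 symbols in the table. Cmpk2 (a mitochondrial nucleotide kinase), Gbp7 (a guanylate-binding protein) and Sp100 (a component of PML nuclear bodies) did not reach that count.

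The RNA was from cultured KP cells, a line of mouse lung adenocarcinoma whose labelled genotype, KrasLSL-G12D/+; Trp53flox/flox, was shared by every group. The groups were BACH1 knockout cells (made with CRISPR/Cas9, sgBACH1) given siRNA against Fem1b (siFEM1B), sgBACH1 cells given control siRNA (siCTRL), cells with a control guide (sgCTRL) given siFEM1B, and sgCTRL cells given siCTRL. BACH1 is a heme-binding transcriptional repressor, FEM1B recruits substrates to a CUL2 ubiquitin ligase, and siRNA was applied for 48 hours. Each group had 3 libraries, which the design text calls biological replicates. The labels name 1 sgCTRL line and 1 sgBACH1 line, so any other difference between these lines cannot be told apart from the loss of BACH1, and p-values measure the spread between these samples only. The labels also name 1 siFEM1B and 1 siCTRL treatment. Any other effect of the siRNA thus cannot be told apart from the loss of Fem1b. The labels name no interferon treatment, and whether the knockout line is a clone or a pool is not given in the sources used here.

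Interferons are cytokines released when receptors such as RIG-I, MDA5 or cGAS detect foreign or displaced nucleic acid. Type I and type III interferons signal through JAK kinases to a transcription factor complex that holds STAT2 and IRF9 and binds the interferon-stimulated response element (ISRE) in target promoters, while interferon gamma acts at gamma-activated sites (GAS). Many products of these genes sense RNA, block translation of viral RNA, modify proteins with ISG15 or act on membranes of intracellular pathogens. Some carcinoma lines hold such genes at a steady level without added interferon.

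The promoters below are shown because their genes stand for the patterns among the members. Isg15, Ifit1 and Rsad2 were far lower in sgBACH1 cells and hold the ISRE core. Slfn2, which was also far lower in sgBACH1 cells and which siFEM1B lowered in both genotypes, holds none. Lgals3bp, which was not called lower in sgBACH1 cells, holds none either. Of the 12 members with a promoter window and no core, 11 were called lower in sgBACH1 cells under siCTRL. Trim25, which siFEM1B also lowered in both genotypes, holds the core. The windows are from RefSeq on GRCm38.p6, 5′ to 3′ on the strand of the gene, with 150 bases before and 50 bases after the start site. Capitals mark matches to the core GAAANNGAA on either strand, and overlapping matches are joined.
Isg15 (chr4:156200769-156200968, minus strand): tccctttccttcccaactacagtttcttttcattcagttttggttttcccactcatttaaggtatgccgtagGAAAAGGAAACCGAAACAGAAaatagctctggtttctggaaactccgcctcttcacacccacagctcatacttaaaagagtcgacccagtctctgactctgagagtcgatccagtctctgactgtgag
Ifit1 (chr19:34640739-34640938, plus strand): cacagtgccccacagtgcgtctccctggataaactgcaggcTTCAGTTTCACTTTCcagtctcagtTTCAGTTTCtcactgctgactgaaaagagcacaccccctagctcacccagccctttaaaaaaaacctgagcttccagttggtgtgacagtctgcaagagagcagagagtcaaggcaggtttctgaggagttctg
Rsad2 (chr12:26456403-26456602, minus strand): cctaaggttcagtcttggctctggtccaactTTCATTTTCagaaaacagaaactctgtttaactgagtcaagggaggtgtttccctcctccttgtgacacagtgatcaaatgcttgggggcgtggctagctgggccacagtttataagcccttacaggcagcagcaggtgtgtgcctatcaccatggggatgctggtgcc
Slfn2 (chr11:83064962-83065161, plus strand): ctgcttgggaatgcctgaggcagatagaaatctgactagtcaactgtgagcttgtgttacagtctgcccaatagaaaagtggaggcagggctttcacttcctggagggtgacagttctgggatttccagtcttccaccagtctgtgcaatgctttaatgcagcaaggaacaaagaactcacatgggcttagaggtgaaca
Lgals3bp (chr11:118401910-118402109, minus strand): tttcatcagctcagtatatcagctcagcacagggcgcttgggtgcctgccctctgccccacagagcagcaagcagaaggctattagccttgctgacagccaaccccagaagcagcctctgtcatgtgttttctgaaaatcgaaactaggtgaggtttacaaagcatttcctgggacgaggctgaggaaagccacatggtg

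Total counts per library lay between 16539168 and 22196999, so that 1 count was worth 0.0446 to 0.0604 CPM, the count scaled to library size. In a principal component analysis the genotypes separated along the leading axis (67.2% of variance) and the siRNAs along the next. Fem1b was called lower with siFEM1B, at -1.51 ± 0.08 (adjusted p = 1.66e-10) in sgBACH1 cells and -1.66 ± 0.08 (adjusted p = 2.77e-11) in sgCTRL cells on the log2 scale. Bach1 transcript was not called between genotypes, at -0.05 ± 0.08 (adjusted p = 0.575) under siFEM1B and -0.09 ± 0.08 (adjusted p = 0.344) under siCTRL, so counts over the whole gene do not check the guide. Hmox1, a gene that BACH1 represses, was higher in sgBACH1 cells, at 1.69 ± 0.16 (adjusted p = 3.40e-08) under siFEM1B and 2.22 ± 0.16 (adjusted p = 6.24e-10) under siCTRL. Of 12 leukocyte markers 10 were too low to test, among them Ptprc and Cd3e, which averaged 0.24 CPM or less in every group. The summed level of the leukocyte list nonetheless moved with the members, at 39.7 to 45.8 CPM in sgBACH1 cells with siFEM1B, 26.5 to 30.9 CPM in sgBACH1 cells with siCTRL, 52.8 to 64.3 CPM in sgCTRL cells with siFEM1B and 42.0 to 46.9 CPM in sgCTRL cells with siCTRL. Cd14 and Cd68 were its tested members, with 394 to 860 counts per library for Cd14 and 103 to 543 for Cd68. Their part in the results below was not tested. In the fibroblast list, whose sum was 8.58 to 11.2 CPM in sgBACH1 cells and 18.4 to 25.2 CPM in sgCTRL cells, Col1a1 and Col1a2 were lower in sgBACH1 cells under both siRNAs, and Pdgfra was higher under siCTRL. Of 6 endothelial markers only Cdh5 was tested, with 0 or 1 counts in each sgBACH1 library and 7 to 33 in each sgCTRL library. The part of these lists in the results was likewise not tested.

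All 6 epithelial markers were tested, with summed levels of 7082 to 7999 CPM in sgBACH1 cells and 8571 to 9380 CPM in sgCTRL cells. Under each siRNA Epcam and Cdh1 were higher and Krt7 and Krt18 lower in sgBACH1 cells. Epcam held 25 to 31 counts per library in sgBACH1 cells with siFEM1B and 4 to 9 with siCTRL. In sgCTRL cells it held 0 to 2, so its direction was partly fixed by the count minimum. Of 7 alveolar type 2 markers, Nkx2-1, Sftpd and Sftpa1 were at 0 in every library, Sftpc and Sftpb were too low to test, and Lamp3 and Abca3 were tested. The sum of that list was 126 to 136 CPM in sgBACH1 cells and 114 to 128 CPM in sgCTRL cells, nearly all of it Abca3, a lipid transporter with 2076 to 2766 counts per library.

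The members were low in sgBACH1 cells and somewhat raised by siFEM1B in both genotypes. The median member, as log2 CPM relative to its mean over all libraries, stood at -0.81, -0.73 and -0.86 in sgBACH1 cells with siFEM1B and at -1.46, -1.31 and -1.48 in sgBACH1 cells with siCTRL. The same median stood at 1.31, 1.63 and 1.503 in sgCTRL cells with siFEM1B and at 0.86, 0.84 and 1.07 in sgCTRL cells with siCTRL. No library of 1 group fell within the range of another on this measure. In bulk RNA, fewer cells expressing a gene and less RNA per cell cannot be told apart.

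**Figure D1:**
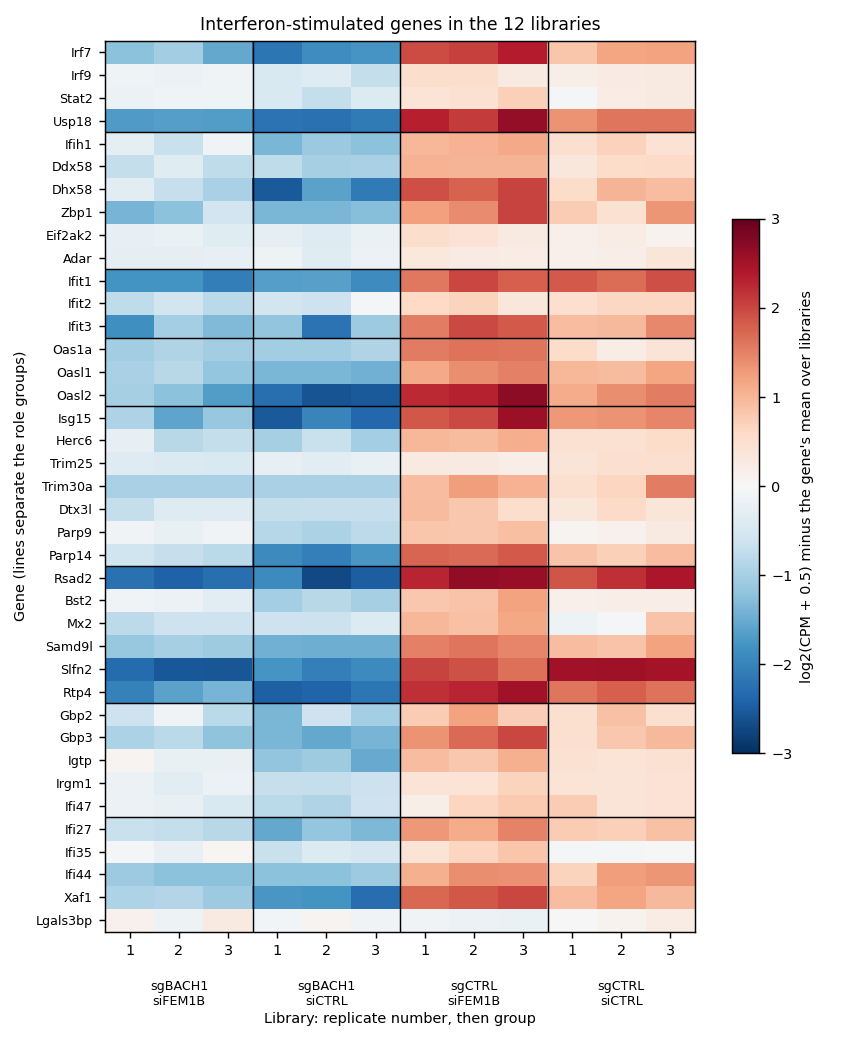
Level of each of the 39 tested members (rows, grouped by role) in each of the 12 libraries (columns), as log2(CPM + 0.5) minus the mean of the gene over libraries; colours saturate at 3 units either way. The 6 sgBACH1 libraries on the left are low for nearly every gene, and Lgals3bp has almost no contrast.

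Levels were lower in sgBACH1 cells in every role group. Under siCTRL, 38 of 39 members were called lower in sgBACH1 than in sgCTRL cells (Benjamini-Hochberg adjusted p under 0.05, edgeR quasi-likelihood test) and none higher. In the same comparison 26.3% of all tested genes were called lower and 24.2% higher. The members and the pathway lists below were chosen with earlier results of these data known. Shares of all tested genes, here and below, therefore describe the background and are no independent test of a list. The median log2 fold change of the members was -2.50, the same with Trim30a (no counts in sgBACH1 cells) at its bound, while that of all tested genes was -0.02. Under siFEM1B, 38 members were again lower and 1 higher, against 26.4% of all tested genes lower and 28.2% higher, with a median of -2.36 for the members and 0.01 for all genes. The 2 knockout comparisons share no library, but they use the same sgBACH1 and sgCTRL lines and 1 model, so they are not independent. Lgals3bp was the one exception under each siRNA. Usp18, Zbp1, Oas1a, Trim30a, Rsad2, Mx2, Gbp2, Gbp3 and Ifi44 had 10 or more counts in fewer than 3 sgBACH1 libraries. These 9 passed the count minimum only through sgCTRL cells, where they were high, so their direction was partly fixed by that minimum. Of the other 30 members, 29 were lower under each siRNA, with a median of -1.62 under siFEM1B and -1.76 under siCTRL.

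**Figure D2:**
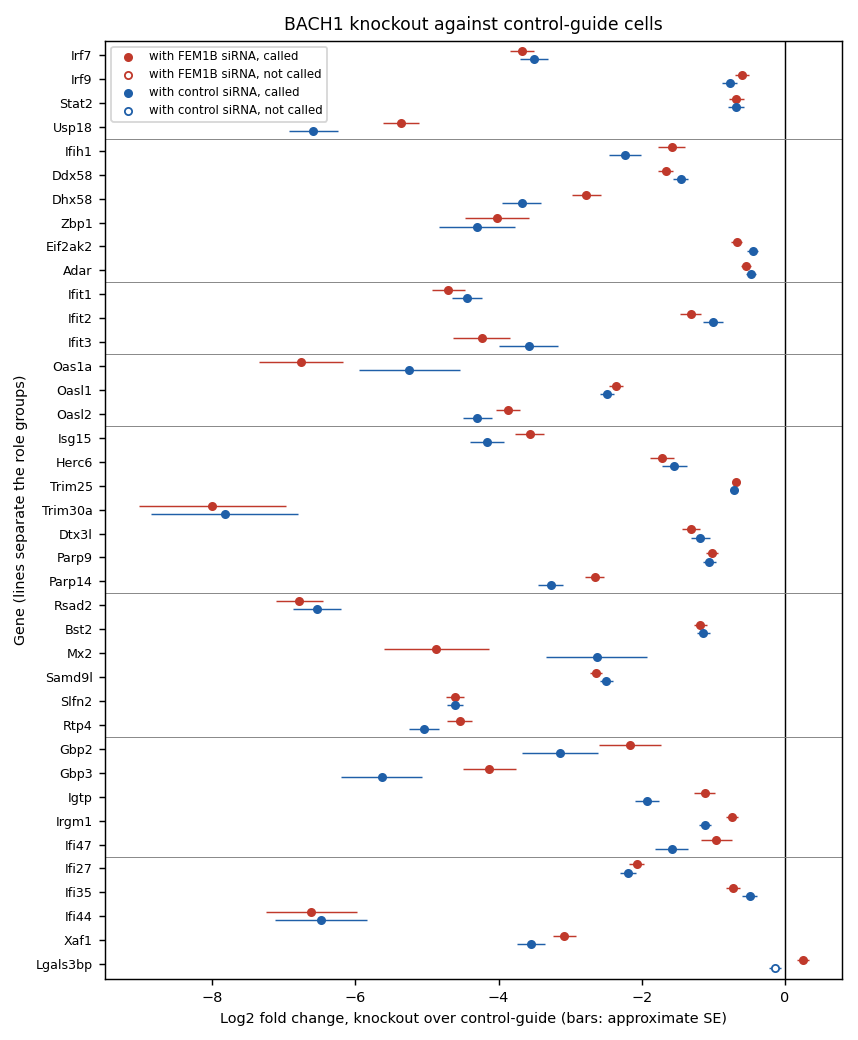
Log2 fold change of each member in sgBACH1 over sgCTRL cells, under siFEM1B and under siCTRL, with approximate standard errors; filled points were called and open points were not. Every point except that of Lgals3bp under siFEM1B lies left of 0, and fitted values of Oas1a, Trim30a, Mx2, Gbp3 and Ifi44, which had 3 or fewer counts in an sgBACH1 group, depend on the prior count and are no bounds.

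siFEM1B moved the members less, and mostly upward. Whether effects of the siRNA other than the loss of Fem1b took part was not tested. In sgBACH1 cells 21 members were called higher with siFEM1B than with siCTRL, 2 lower and 16 were not called, while 21.9% of all tested genes were called higher and 19.8% lower. In sgCTRL cells 26 members were higher, 3 lower and 10 not called, against 22.1% of all tested genes higher and 22.9% lower. The median log2 fold change of the members was 0.43 in sgBACH1 cells (all tested genes 0.02) and 0.54 in sgCTRL cells (all tested genes 0). Each siRNA comparison shares libraries with a knockout comparison, so their values are given side by side below and not correlated.

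**Figure D3:**
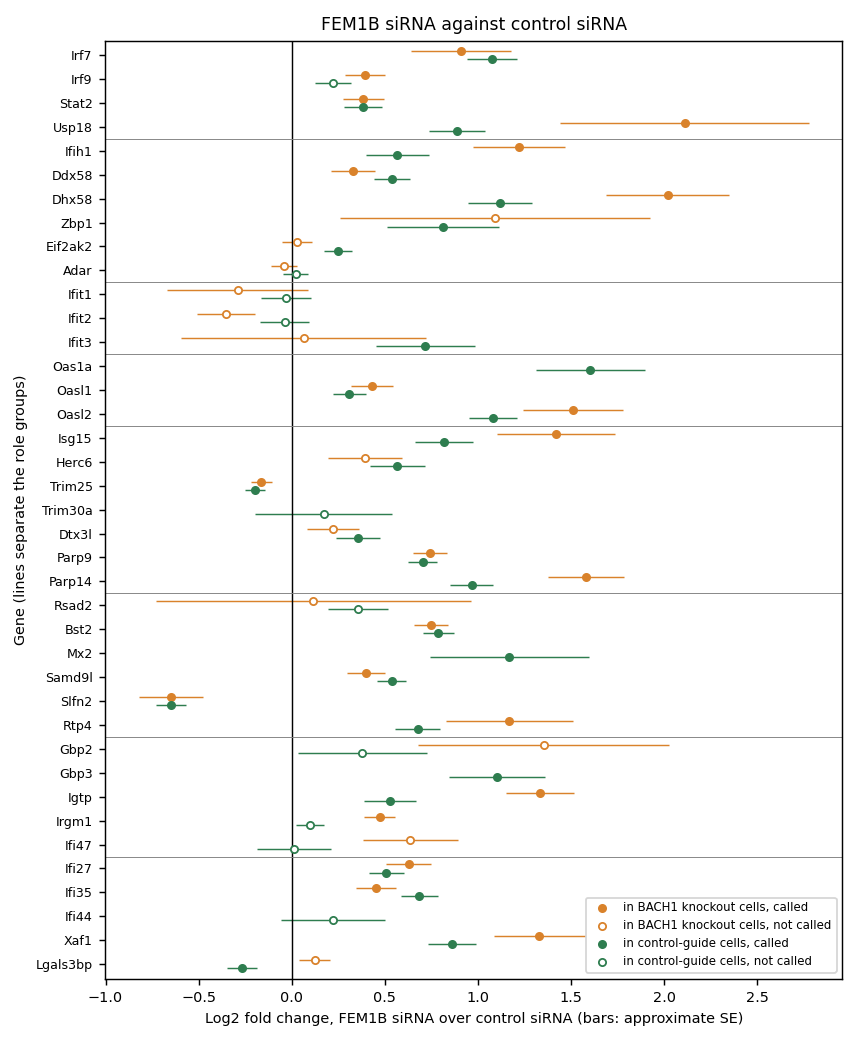
Log2 fold change of each member with siFEM1B over siCTRL, in sgBACH1 and in sgCTRL cells, with approximate standard errors; filled points were called and open points were not. Most points lie right of 0 by less than 1 unit, Slfn2 and Trim25 are called and lie left in both genotypes, Ifit1 and Ifit2 lie left in both without a call, and the sgBACH1 values of Oas1a, Trim30a, Mx2, Gbp3 and Ifi44 are left out because a group held 3 or fewer counts.

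The signalling members all fell in sgBACH1 cells, and 3 of the 4 rose with siFEM1B in sgCTRL cells and 4 of 4 in sgBACH1 cells. Irf7 (chromosome 7, 141263183 to 141266499, GRCm38.p6, as for all positions here), the transcription factor that amplifies interferon production, measured 1.99, 2.32 and 1.51 CPM with siFEM1B and 0.789, 1.10 and 1.20 CPM with siCTRL in sgBACH1 cells. sgCTRL cells had 22.2, 23.4 and 29.3 CPM with siFEM1B and 9.91, 12.7 and 12.9 CPM with siCTRL. Every sgBACH1 library was below every sgCTRL library, and the siRNA groups did not overlap within either genotype. The log2 fold change of Irf7 in sgBACH1 over sgCTRL cells was -3.67 ± 0.17 (adjusted p = 8.61e-13) under siFEM1B and -3.50 ± 0.20 (adjusted p = 1.43e-11) under siCTRL. With siFEM1B over siCTRL it was 0.91 ± 0.27 (adjusted p = 0.00949) in sgBACH1 cells and 1.08 ± 0.13 (adjusted p = 2.17e-06) in sgCTRL cells.

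Stat2 (chromosome 10, 128270498 to 128292853) and Irf9 (chromosome 14, 55603985 to 55610030) encode partners in the complex that binds the ISRE, and both fell by less than Irf7. Stat2 measured 22.1, 23.3 and 22.9 CPM with siFEM1B and 18.3, 15.1 and 18.9 CPM with siCTRL in sgBACH1 cells, against 33.5, 34.5 and 41.6 CPM with siFEM1B and 24.1, 29.7 and 30.3 CPM with siCTRL in sgCTRL cells. The genotypes did not overlap under either siRNA, and the log2 fold changes in sgBACH1 over sgCTRL cells were -0.68 ± 0.10 (adjusted p = 1.75e-05) under siFEM1B and -0.68 ± 0.11 (adjusted p = 2.52e-05) under siCTRL. The siFEM1B effect on Stat2 was 0.38 ± 0.11 (adjusted p = 0.00837) in sgBACH1 cells and 0.38 ± 0.10 (adjusted p = 0.00479) in sgCTRL cells, and in sgBACH1 cells its adjusted p was 0.0547 without sgBACH1 siCTRL replicate 2.

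Irf9 measured 15.6, 15.0 and 15.7 CPM with siFEM1B and 12.3, 12.8 and 10.2 CPM with siCTRL in sgBACH1 cells, against 24.6, 24.98 and 20.5 CPM with siFEM1B and 19.2, 20.3 and 20.6 CPM with siCTRL in sgCTRL cells. The sgBACH1 libraries were again the lower ones, at -0.60 ± 0.10 (adjusted p = 4.43e-05) under siFEM1B and -0.77 ± 0.10 (adjusted p = 3.48e-06) under siCTRL on the log2 scale. siFEM1B raised Irf9 in sgBACH1 cells, at 0.39 ± 0.11 (adjusted p = 0.00572), and its change in sgCTRL cells was not called, at 0.22 ± 0.10 (adjusted p = 0.0694). That adjusted p was 0.0133 without sgCTRL siFEM1B replicate 3. Its exons share 123 bases with those of Rnf31 on the same strand, and the strand setting of the authors' counting is not given in the sources used here.

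Usp18 (chromosome 6, 121245906 to 121270917), the protease that removes ISG15 from proteins and dampens interferon receptor signalling, was nearly silent in sgBACH1 cells. It measured 0.291, 0.324 and 0.302 CPM with siFEM1B and 0.0526, 0.0499 and 0.0924 CPM with siCTRL, from 17 and 4 counts summed over the libraries of each group. sgCTRL cells had 12.4, 10.5 and 15.7 CPM with siFEM1B and 6.09, 7.39 and 7.32 CPM with siCTRL. All groups were apart from each other, at -5.36 ± 0.25 (adjusted p = 7.09e-13) under siFEM1B and -6.59 ± 0.34 (adjusted p = 3.02e-12) under siCTRL for sgBACH1 over sgCTRL cells. The siFEM1B effect was 2.11 ± 0.67 (adjusted p = 0.0153) in sgBACH1 cells and 0.89 ± 0.15 (adjusted p = 7.21e-05) in sgCTRL cells.

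The 6 members that sense or answer nucleic acid were lower in sgBACH1 cells under both siRNAs. Ifih1 (MDA5, a sensor of long double-stranded RNA; chromosome 2, 62595618 to 62646255) measured 2.28, 1.62 and 2.60 CPM with siFEM1B and 0.789, 1.05 and 0.924 CPM with siCTRL in sgBACH1 cells, against 6.16, 6.44 and 6.83 CPM with siFEM1B and 4.18, 4.90 and 4.01 CPM with siCTRL in sgCTRL cells. No sgBACH1 library reached the sgCTRL range, and the log2 fold changes were -1.58 ± 0.19 (adjusted p = 7.13e-07) under siFEM1B and -2.24 ± 0.22 (adjusted p = 5.89e-08) under siCTRL. siFEM1B raised Ifih1 in both genotypes, by 1.22 ± 0.25 (adjusted p = 5.16e-04) in sgBACH1 cells and 0.57 ± 0.17 (adjusted p = 0.00988) in sgCTRL cells.

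Ddx58 (RIG-I, a sensor of RNA ends; chromosome 4, 40203777 to 40239825) measured 11.2, 14.5 and 10.8 CPM with siFEM1B and 10.8, 9.13 and 9.20 CPM with siCTRL in sgBACH1 cells, against 38.7, 38.4 and 38.7 CPM with siFEM1B and 23.9, 27.7 and 28.2 CPM with siCTRL in sgCTRL cells. Between genotypes Ddx58 changed by -1.67 ± 0.11 (adjusted p = 8.57e-11) under siFEM1B and -1.46 ± 0.11 (adjusted p = 9.69e-10) under siCTRL. The siFEM1B groups lay above the siCTRL groups in both genotypes, narrowly so in sgBACH1 cells, with log2 fold changes of 0.33 ± 0.12 (adjusted p = 0.0307) in sgBACH1 cells and 0.54 ± 0.10 (adjusted p = 1.55e-04) in sgCTRL cells, and in sgBACH1 cells the adjusted p was 0.224 without sgBACH1 siFEM1B replicate 2, 0.0973 without sgBACH1 siCTRL replicate 2, 0.107 without sgBACH1 siCTRL replicate 3 and 0.0737 with only the 6 libraries compared.

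Dhx58 (LGP2, a regulator of both sensors; chromosome 11, 100694884 to 100704271) measured 3.01, 2.21 and 1.75 CPM with siFEM1B and 0.263, 0.948 and 0.508 CPM with siCTRL in sgBACH1 cells. sgCTRL cells had 16.4, 14.6 and 17.5 CPM with siFEM1B and 6.002, 8.43 and 7.92 CPM with siCTRL. Its siFEM1B effect was among the 3 largest rises in either genotype, at 2.02 ± 0.33 (adjusted p = 6.27e-05) in sgBACH1 cells and 1.12 ± 0.17 (adjusted p = 2.69e-05) in sgCTRL cells, with no overlap between siRNA groups. The genotype effect was -2.78 ± 0.20 (adjusted p = 7.30e-10) under siFEM1B and -3.68 ± 0.27 (adjusted p = 8.38e-10) under siCTRL.

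The 3 other members of this group were Zbp1 (a sensor of Z-form nucleic acid that can start necroptosis), Eif2ak2 (PKR, the RNA-activated kinase that halts translation) and Adar (the enzyme that converts adenosine to inosine in double-stranded RNA). Zbp1 averaged 0.267 ± 0.241 and 0.115 ± 0.0210 CPM in sgBACH1 cells with siFEM1B and siCTRL, against 4.23 ± 1.43 and 2.40 ± 0.910 CPM in sgCTRL cells (SD, n = 3 each). It fell in sgBACH1 cells, with log2 fold changes of -4.02 ± 0.44 (adjusted p = 2.44e-07) under siFEM1B and -4.30 ± 0.53 (adjusted p = 1.34e-06) under siCTRL. Eif2ak2 and Adar fell by less than 1 unit, Eif2ak2 at -0.68 ± 0.08 under siFEM1B and -0.45 ± 0.08 under siCTRL, and Adar at -0.54 ± 0.07 and -0.48 ± 0.07. siFEM1B raised Zbp1 (0.81 ± 0.30, adjusted p = 0.0328) and Eif2ak2 (0.25 ± 0.08, adjusted p = 0.00999) in sgCTRL cells, and the adjusted p was 0.200 without sgCTRL siFEM1B replicate 3, 0.101 without sgCTRL siCTRL replicate 1 and 0.156 without sgCTRL siCTRL replicate 2 for Zbp1 and 0.0643 without sgCTRL siFEM1B replicate 1 for Eif2ak2. Adar gave -0.04 ± 0.07 (adjusted p = 0.661) in sgBACH1 cells and 0.02 ± 0.07 (adjusted p = 0.813) in sgCTRL cells with siFEM1B, and 1365 of its 6000 annotated exon bases overlap Chrnb2 on the opposite strand.

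The IFIT proteins, which bind foreign RNA and block its translation, fell in sgBACH1 cells, and none was called there with siFEM1B. Ifit1 (chromosome 19, 34640889 to 34650009), whose promoter above holds 3 matches to the ISRE core, measured 0.485, 0.486 and 0.302 CPM with siFEM1B and 0.579, 0.599 and 0.416 CPM with siCTRL in sgBACH1 cells. sgCTRL cells had 9.63, 13.1 and 11.3 CPM with siFEM1B and 11.7, 10.4 and 12.6 CPM with siCTRL. The genotypes were far apart, at -4.70 ± 0.23 (adjusted p = 1.15e-12) under siFEM1B and -4.44 ± 0.21 (adjusted p = 8.26e-13) under siCTRL, while the siRNA groups overlapped within each genotype. The siFEM1B effect on Ifit1 was -0.29 ± 0.38 (adjusted p = 0.572) in sgBACH1 cells and -0.03 ± 0.14 (adjusted p = 0.882) in sgCTRL cells.

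Ifit2 averaged 6.11 ± 0.697 and 7.77 ± 1.84 CPM in sgBACH1 cells with siFEM1B and siCTRL, against 15.2 ± 1.80 and 15.6 ± 0.791 CPM in sgCTRL cells (SD, n = 3 each). It was lower in sgBACH1 cells, with log2 fold changes of -1.32 ± 0.15 (adjusted p = 3.01e-07) under siFEM1B and -1.002 ± 0.14 (adjusted p = 6.07e-06) under siCTRL, and was not called with siFEM1B, at -0.35 ± 0.16 (adjusted p = 0.0782) in sgBACH1 cells and -0.04 ± 0.13 (adjusted p = 0.850) in sgCTRL cells. In sgBACH1 cells the adjusted p of that change was 0.0409 with no low-count filter, 0.0451 without sgBACH1 siFEM1B replicate 2 and 0.0322 without sgBACH1 siCTRL replicate 2. Ifit3 fell in sgBACH1 cells at -4.23 ± 0.40 (adjusted p = 3.17e-08) under siFEM1B and -3.58 ± 0.42 (adjusted p = 5.59e-07) under siCTRL, was the only IFIT gene called with siFEM1B, at 0.72 ± 0.27 (adjusted p = 0.0346) in sgCTRL cells, and had an adjusted p there of 0.314 with DESeq2, 0.134 without sgCTRL siFEM1B replicate 2, 0.0663 without sgCTRL siFEM1B replicate 3, 0.126 without sgCTRL siCTRL replicate 1 and 0.120 without sgCTRL siCTRL replicate 2.

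The OAS family makes or resembles the enzymes whose oligoadenylate product activates RNase L. Oasl2 (chromosome 5, 114896926 to 114912245), an OAS-like protein, measured 4.02, 3.29 and 2.29 CPM with siFEM1B and 1.37, 0.998 and 1.06 CPM with siCTRL in sgBACH1 cells, against 41.7, 44.1 and 56.9 CPM with siFEM1B and 18.96, 23.2 and 25.3 CPM with siCTRL in sgCTRL cells. All groups were apart from each other. The genotype effect was -3.87 ± 0.17 (adjusted p = 2.03e-13) under siFEM1B and -4.29 ± 0.20 (adjusted p = 6.88e-13) under siCTRL, and the siFEM1B effect was 1.51 ± 0.27 (adjusted p = 1.57e-04) in sgBACH1 cells and 1.08 ± 0.13 (adjusted p = 1.34e-06) in sgCTRL cells.

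Oas1a (chromosome 5, 120896256 to 120907544), an oligoadenylate synthetase, was all but absent from sgBACH1 cells, with 1 count summed over the libraries of each siRNA group. sgCTRL cells had 2.54, 2.68 and 2.60 CPM with siFEM1B and 1.0004, 0.706 and 0.853 CPM with siCTRL. Its summed level was 145-fold lower in sgBACH1 cells under siFEM1B (exact 95% interval 25.7 to 5774) and 51.9-fold lower under siCTRL (8.93 to 2087), with intervals that cover counting error only. In sgCTRL cells siFEM1B raised it by 1.604 ± 0.29 (adjusted p = 1.77e-04), the largest rise of a member there. Oasl1, which in mice restrains the translation of Irf7, averaged 18.1 ± 2.13 and 13.4 ± 0.435 CPM in sgBACH1 cells with siFEM1B and siCTRL, against 93.3 ± 12.3 and 75.2 ± 6.605 CPM in sgCTRL cells (SD, n = 3 each). It was called in all 4 comparisons, at -2.36 ± 0.10 (adjusted p = 1.71e-13) under siFEM1B and -2.49 ± 0.10 (adjusted p = 9.38e-14) under siCTRL for genotype and 0.43 ± 0.11 (adjusted p = 0.00421) in sgBACH1 cells and 0.31 ± 0.09 (adjusted p = 0.00723) in sgCTRL cells for siFEM1B.

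The ISG15 pathway and its neighbours, the ubiquitin ligases and ADP-ribosyltransferases, held 7 members, and all were lower in sgBACH1 cells under each siRNA. Isg15 (chromosome 4, 156199424 to 156200818), the ubiquitin-like modifier itself, measured 3.39, 1.94 and 2.84 CPM with siFEM1B and 0.789, 1.35 and 0.924 CPM with siCTRL in sgBACH1 cells. sgCTRL cells had 26.0, 28.5 and 43.2 CPM with siFEM1B and 17.5, 18.2 and 19.6 CPM with siCTRL. No groups overlapped, and sgCTRL replicate 3 with siFEM1B was the highest library. The genotype effect was -3.57 ± 0.20 (adjusted p = 1.09e-11) under siFEM1B and -4.16 ± 0.24 (adjusted p = 1.61e-11) under siCTRL, and the siFEM1B effect was 1.42 ± 0.32 (adjusted p = 0.00128) in sgBACH1 cells and 0.82 ± 0.15 (adjusted p = 2.28e-04) in sgCTRL cells.

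Trim30a (chromosome 7, 104409025 to 104465193), a TRIM protein of mice, had 0 counts in all 6 sgBACH1 libraries. sgCTRL cells had 1.38, 1.85 and 1.52 CPM with siFEM1B and 0.864, 1.04 and 2.36 CPM with siCTRL. Against a floor of 3 counts over the group, its level was at least 29.4-fold lower in sgBACH1 cells under siFEM1B and at least 28.2-fold lower under siCTRL. Its siFEM1B effect in sgCTRL cells was 0.17 ± 0.37 (adjusted p = 0.740).

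Trim25 (chromosome 11, 88999403 to 89020294), a ubiquitin ligase of RIG-I signalling, was lower in sgBACH1 cells and lower again with siFEM1B. It measured 75.1, 72.3 and 70.9 CPM with siFEM1B and 82.0, 78.5 and 83.9 CPM with siCTRL in sgBACH1 cells, against 119, 119 and 112 CPM with siFEM1B and 128, 137 and 136 CPM with siCTRL in sgCTRL cells. No groups overlapped, at -0.68 ± 0.06 (adjusted p = 3.42e-09) under siFEM1B and -0.71 ± 0.05 (adjusted p = 1.17e-09) under siCTRL for genotype. The fall with siFEM1B was small, at -0.16 ± 0.06 (adjusted p = 0.0235) in sgBACH1 cells and -0.20 ± 0.05 (adjusted p = 0.00506) in sgCTRL cells, and in sgBACH1 cells its adjusted p was 0.0840 without sgBACH1 siFEM1B replicate 3, 0.0645 without sgBACH1 siCTRL replicate 1 and 0.0971 without sgBACH1 siCTRL replicate 3.

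Parp9 and Parp14, an inactive and an active ADP-ribosyltransferase, were called in all 4 comparisons. Parp14 averaged 2.71 ± 0.242 and 0.902 ± 0.157 CPM in sgBACH1 cells with siFEM1B and siCTRL, against 17.2 ± 0.898 and 8.80 ± 0.695 CPM in sgCTRL cells (SD, n = 3 each). It changed by -2.66 ± 0.14 (adjusted p = 3.16e-12) under siFEM1B and -3.27 ± 0.17 (adjusted p = 3.68e-12) under siCTRL with genotype and by 1.58 ± 0.21 (adjusted p = 4.80e-06) in sgBACH1 cells and 0.97 ± 0.12 (adjusted p = 1.51e-06) in sgCTRL cells with siFEM1B. Parp9 changed by -1.02 ± 0.08 under siFEM1B and -1.05 ± 0.09 under siCTRL with genotype, and by 0.74 ± 0.09 and 0.70 ± 0.08 with siFEM1B in sgBACH1 and sgCTRL cells. Dtx3l, the ubiquitin ligase that binds PARP9, and Herc6, the main ISG15 ligase of mice, fell in sgBACH1 cells, with log2 fold changes between -1.72 and -1.18. siFEM1B raised Herc6 (0.57 ± 0.15, adjusted p = 0.00411) and Dtx3l (0.36 ± 0.12, adjusted p = 0.0174) in sgCTRL cells, and neither was called in sgBACH1 cells. The adjusted p of Dtx3l in sgCTRL cells was 0.110 without sgCTRL siFEM1B replicate 1, 0.0543 without sgCTRL siFEM1B replicate 2, 0.0710 without sgCTRL siCTRL replicate 1 and 0.0651 without sgCTRL siCTRL replicate 3. Dtx3l and Parp9 share 367 exon bases on opposite strands.

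Among the antiviral effectors, 6 of 7 members were tested and all 6 were lower in sgBACH1 cells. Rsad2 (viperin, which makes a chain-terminating nucleotide; chromosome 12, 26442743 to 26456452) measured 0.194, 0.108 and 0.181 CPM with siFEM1B and 0.368, 0 and 0.0924 CPM with siCTRL in sgBACH1 cells, from 9 counts in each group. sgCTRL cells had 15.4, 20.3 and 19.6 CPM with siFEM1B and 11.7, 14.4 and 17.1 CPM with siCTRL. The genotypes were far apart, at -6.78 ± 0.33 (adjusted p = 1.26e-12) under siFEM1B and -6.54 ± 0.33 (adjusted p = 2.49e-12) under siCTRL, and the siRNA groups overlapped, at 0.12 ± 0.84 (adjusted p = 0.926) in sgBACH1 cells and 0.36 ± 0.16 (adjusted p = 0.0811) in sgCTRL cells. In sgCTRL cells the adjusted p was 0.0183 with no low-count filter, 0.0291 without sgCTRL siFEM1B replicate 1, 0.0400 without sgCTRL siCTRL replicate 3 and 0.0412 with only the 6 libraries compared.

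Bst2 (tetherin, which holds budding virus at the cell surface; chromosome 8, 71534255 to 71537472) measured 66.1, 62.9 and 57.3 CPM with siFEM1B and 35.3, 39.8 and 35.9 CPM with siCTRL in sgBACH1 cells. sgCTRL cells had 126, 131 and 166 CPM with siFEM1B and 79.4, 82.7 and 82.9 CPM with siCTRL. No groups overlapped, and siFEM1B raised Bst2 in both genotypes, at 0.75 ± 0.09 (adjusted p = 2.10e-06) in sgBACH1 cells and 0.79 ± 0.08 (adjusted p = 3.45e-07) in sgCTRL cells. In sgBACH1 cells Bst2 was lower, at -1.18 ± 0.09 (adjusted p = 6.57e-10) under siFEM1B and -1.14 ± 0.09 (adjusted p = 1.74e-09) under siCTRL.

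Slfn2 (chromosome 11, 83065112 to 83070678), a Schlafen protein that keeps immune cells quiescent in mice, fell in sgBACH1 cells and fell again with siFEM1B. It measured 2.57, 2.11 and 2.05 CPM with siFEM1B and 3.95, 3.14 and 3.56 CPM with siCTRL in sgBACH1 cells, against 61.1, 56.5 and 47.5 CPM with siFEM1B and 85.9, 88.0 and 84.9 CPM with siCTRL in sgCTRL cells. All groups were apart. The genotype effect was -4.60 ± 0.12 (adjusted p = 1.29e-16) under siFEM1B and -4.60 ± 0.11 (adjusted p = 1.54e-17) under siCTRL. The siFEM1B effect was -0.65 ± 0.17 (adjusted p = 0.00493) in sgBACH1 cells and -0.65 ± 0.08 (adjusted p = 2.29e-06) in sgCTRL cells, the largest fall of a called member in either genotype.

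Mx2 (chromosome 16, 97536081 to 97560901), a dynamin-like antiviral GTPase, held 2 counts in sgBACH1 cells with siFEM1B and 5 with siCTRL, or 0, 0.0540 and 0.0604 CPM with siFEM1B and 0.0526, 0.0499 and 0.139 CPM with siCTRL. sgCTRL cells had 1.20, 1.07 and 1.41 CPM with siFEM1B and 0.273, 0.330 and 1.05 CPM with siCTRL, and replicate 3 with siCTRL stood above the other two of its group. Under siFEM1B its summed level was 34.1-fold lower in sgBACH1 cells (exact 95% interval 9.10 to 286). Under siCTRL the log2 fold change was -2.63 ± 0.71 (adjusted p = 0.00431), with an adjusted p of 0.0548 without sgCTRL siCTRL replicate 3. siFEM1B raised it in sgCTRL cells, at 1.17 ± 0.43 (adjusted p = 0.0313), where the adjusted p was 0.0821 with DESeq2, 0.0502 with no low-count filter, 0.0600 without sgCTRL siFEM1B replicate 1, 0.0855 without sgCTRL siFEM1B replicate 3, 0.154 without sgCTRL siCTRL replicate 1 and 0.139 without sgCTRL siCTRL replicate 2.

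Samd9l, a restrictor of cell growth and poxvirus replication, averaged 15.0 ± 0.683 and 11.4 ± 0.105 CPM in sgBACH1 cells with siFEM1B and siCTRL, against 93.5 ± 4.83 and 64.4 ± 8.5005 CPM in sgCTRL cells (SD, n = 3 each). It changed by -2.64 ± 0.09 (adjusted p = 4.25e-15) under siFEM1B and -2.50 ± 0.09 (adjusted p = 1.21e-14) under siCTRL with genotype and by 0.40 ± 0.10 (adjusted p = 0.00344) in sgBACH1 cells and 0.54 ± 0.08 (adjusted p = 1.19e-05) in sgCTRL cells with siFEM1B. Rtp4, a receptor transporter protein, averaged 1.03 ± 0.327 and 0.441 ± 0.0998 CPM in sgBACH1 cells, against 23.7 ± 3.02 and 14.8 ± 1.11 CPM in sgCTRL cells (SD, n = 3 each). It changed by -4.54 ± 0.18 (adjusted p = 5.66e-14) under siFEM1B and -5.04 ± 0.21 (adjusted p = 1.09e-13) under siCTRL with genotype and by 1.17 ± 0.34 (adjusted p = 0.00884) in sgBACH1 cells and 0.68 ± 0.12 (adjusted p = 1.28e-04) in sgCTRL cells with siFEM1B, and in sgBACH1 cells the adjusted p was 0.0511 without sgBACH1 siFEM1B replicate 3.

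The guanylate-binding proteins and immunity-related GTPases, which interferon gamma induces and which act on vacuoles that hold pathogens, held 5 tested members, all lower in sgBACH1 cells. As in the Ifit, Oas and Trim30 families, close relatives exist between which the authors' counting could split reads. Gbp2 (chromosome 3, 142620663 to 142638008) measured 0.339, 0.702 and 0.241 CPM with siFEM1B and 0, 0.349 and 0.139 CPM with siCTRL in sgBACH1 cells, against 1.70, 2.49 and 1.68 CPM with siFEM1B and 1.32, 1.88 and 1.30 CPM with siCTRL in sgCTRL cells. The genotypes did not overlap, at -2.17 ± 0.43 (adjusted p = 2.97e-04) under siFEM1B and -3.14 ± 0.53 (adjusted p = 5.33e-05) under siCTRL, and siFEM1B gave 1.35 ± 0.67 (adjusted p = 0.114) in sgBACH1 cells and 0.38 ± 0.35 (adjusted p = 0.398) in sgCTRL cells. In sgBACH1 cells the adjusted p was 0.0288 without sgBACH1 siCTRL replicate 2.

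Gbp3 (chromosome 3, 142560016 to 142573213) measured 0.242, 0.324 and 0.121 CPM with siFEM1B and 0.0526, 0 and 0.0462 CPM with siCTRL in sgBACH1 cells, from 13 and 2 counts. sgCTRL cells had 3.17, 4.15 and 5.26 CPM with siFEM1B and 1.501, 2.03 and 2.31 CPM with siCTRL. Under siCTRL its summed level was 58.6-fold lower in sgBACH1 cells (exact 95% interval 15.9 to 489), and under siFEM1B the log2 fold change was -4.13 ± 0.37 (adjusted p = 1.50e-08). The siFEM1B effect was 1.10 ± 0.26 (adjusted p = 0.00152) in sgCTRL cells. In sgBACH1 cells it was 2.61 ± 0.90 (adjusted p = 0.0245), a fitted value that rests on 2 counts with siCTRL and depends on the prior count. In sgBACH1 cells the adjusted p was 0.0562 without sgBACH1 siFEM1B replicate 1, 0.0849 without sgBACH1 siFEM1B replicate 2 and 0.0832 without sgBACH1 siCTRL replicate 2.

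Igtp (chromosome 11, 58199556 to 58207592) measured 5.38, 4.21 and 4.22 CPM with siFEM1B and 1.95, 2.15 and 1.43 CPM with siCTRL in sgBACH1 cells. sgCTRL cells had 10.0, 9.22 and 11.0 CPM with siFEM1B and 7.05, 6.83 and 7.07 CPM with siCTRL. All groups were apart, at -1.12 ± 0.15 (adjusted p = 2.79e-06) under siFEM1B and -1.93 ± 0.17 (adjusted p = 1.56e-08) under siCTRL for genotype and 1.33 ± 0.18 (adjusted p = 9.79e-06) in sgBACH1 cells and 0.53 ± 0.14 (adjusted p = 0.00428) in sgCTRL cells for siFEM1B. Its exons share 162 bases with Irgm2 on the same strand.

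Irgm1 (chromosome 11, 48865245 to 48871420) measured 30.3, 27.0 and 30.4 CPM with siFEM1B and 20.8, 20.8 and 21.6 CPM with siCTRL in sgBACH1 cells. sgCTRL cells had 45.8, 45.9 and 54.9 CPM with siFEM1B and 45.8, 45.0 and 46.1 CPM with siCTRL, with overlap between the siRNAs. It was lower in sgBACH1 cells, at -0.74 ± 0.08 (adjusted p = 1.46e-07) under siFEM1B and -1.12 ± 0.08 (adjusted p = 4.83e-10) under siCTRL, and siFEM1B gave 0.47 ± 0.08 (adjusted p = 1.25e-04) in sgBACH1 cells and 0.10 ± 0.08 (adjusted p = 0.317) in sgCTRL cells. Ifi47 fell in sgBACH1 cells at -0.96 ± 0.22 (adjusted p = 0.00107) under siFEM1B and -1.58 ± 0.23 (adjusted p = 1.08e-05) under siCTRL, and siFEM1B gave 0.64 ± 0.26 (adjusted p = 0.0521) in sgBACH1 cells and 0.01 ± 0.20 (adjusted p = 0.974) in sgCTRL cells. In sgBACH1 cells the adjusted p of Ifi47 was 0.0476 without sgBACH1 siFEM1B replicate 3 and 0.0366 without sgCTRL siFEM1B replicate 1.

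The remaining tested members were Ifi27, Ifi35, Ifi44, Xaf1 and Lgals3bp. Ifi27, a small membrane protein, averaged 13.1 ± 0.715 and 8.45 ± 1.16 CPM in sgBACH1 cells with siFEM1B and siCTRL, against 55.1 ± 7.22 and 38.7 ± 2.37 CPM in sgCTRL cells (SD, n = 3 each). It changed by -2.07 ± 0.10 (adjusted p = 1.96e-12) under siFEM1B and -2.19 ± 0.11 (adjusted p = 1.66e-12) under siCTRL with genotype and by 0.63 ± 0.12 (adjusted p = 3.09e-04) in sgBACH1 cells and 0.51 ± 0.09 (adjusted p = 1.63e-04) in sgCTRL cells with siFEM1B. Xaf1, a partner of the apoptosis inhibitor XIAP, was called in the same directions, at -3.08 ± 0.16 (adjusted p = 3.63e-12) under siFEM1B and -3.55 ± 0.19 (adjusted p = 7.09e-12) under siCTRL for genotype and 1.33 ± 0.25 (adjusted p = 2.26e-04) in sgBACH1 cells and 0.86 ± 0.13 (adjusted p = 1.94e-05) in sgCTRL cells for siFEM1B. Ifi35, a leucine-zipper protein, fell by less, at -0.73 ± 0.10 (adjusted p = 5.14e-06) under siFEM1B and -0.49 ± 0.11 (adjusted p = 6.33e-04) under siCTRL, and rose with siFEM1B, at 0.45 ± 0.11 (adjusted p = 0.00200) in sgBACH1 cells and 0.69 ± 0.10 (adjusted p = 1.51e-05) in sgCTRL cells. Ifi44 held 1 count in each sgBACH1 group, against 144 counts in sgCTRL cells with siFEM1B and 127 with siCTRL. Its summed level was 131-fold lower in sgBACH1 cells under siFEM1B (exact 95% interval 23.1 to 5200) and 122-fold lower under siCTRL (21.5 to 4857), and siFEM1B gave 0.22 ± 0.28 (adjusted p = 0.548) in sgCTRL cells.

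Lgals3bp (chromosome 11, 118392747 to 118401959), a secreted glycoprotein that binds galectin-3, was the one tested member not called lower in sgBACH1 cells. It measured 175, 144 and 189.7 CPM with siFEM1B and 151, 168 and 147 CPM with siCTRL in sgBACH1 cells, against 148, 140.2 and 138 CPM with siFEM1B and 157, 170.5 and 185 CPM with siCTRL in sgCTRL cells, and the genotypes overlapped under both siRNAs. The genotype effect was 0.25 ± 0.08 (adjusted p = 0.0133) under siFEM1B and -0.14 ± 0.08 (adjusted p = 0.174) under siCTRL. Under siFEM1B the adjusted p was 0.0506 without sgBACH1 siFEM1B replicate 1 and 0.115 without sgBACH1 siFEM1B replicate 3. The siFEM1B effect was 0.12 ± 0.08 (adjusted p = 0.242) in sgBACH1 cells and -0.27 ± 0.08 (adjusted p = 0.0119) in sgCTRL cells, and the adjusted p was 0.0137 without sgBACH1 siFEM1B replicate 2 in sgBACH1 cells and 0.0503 without sgCTRL siFEM1B replicate 3 and 0.0784 without sgCTRL siCTRL replicate 3 in sgCTRL cells.

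**Figure D4:**
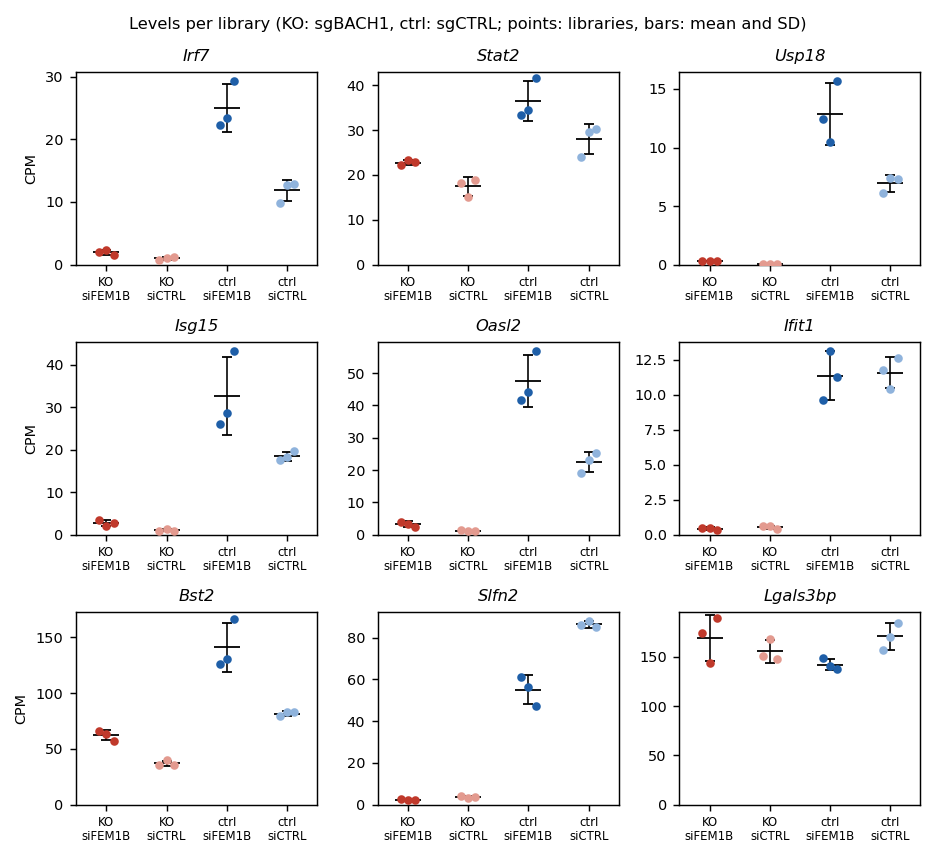
CPM of Irf7, Stat2, Usp18, Isg15, Oasl2, Ifit1, Bst2, Slfn2 and Lgals3bp in each library (points) with the mean and SD of each group of 3 (bars), on linear axes from 0. Slfn2 measured 2.05 to 2.57 CPM in sgBACH1 cells with siFEM1B and 84.9 to 88.0 CPM in sgCTRL cells with siCTRL, while the groups of Lgals3bp overlap.

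Whether the siFEM1B effect differed between genotypes was tested as the effect in sgBACH1 cells minus that in sgCTRL cells. Of the 39 members, 2 (5.13%) were called higher and none lower. Of all tested genes 3.48% were called higher and 2.60% lower, so the members' share of higher calls was near that background. The members' median was 0.03. Igtp gave 0.80 ± 0.23 (adjusted p = 0.0457) and Irgm1 gave 0.38 ± 0.11 (adjusted p = 0.04996), a larger fitted rise in sgBACH1 cells. Both calls were close to the threshold. That of Igtp ended on leaving out any 1 of 9 of the 12 libraries (adjusted p 0.0573 to 0.157), all but sgBACH1 siFEM1B replicate 2, sgBACH1 siCTRL replicate 2 and sgCTRL siFEM1B replicate 3. That of Irgm1 ended on leaving out any 1 of 10 (adjusted p 0.0747 to 0.133), all but sgBACH1 siFEM1B replicate 2 and sgCTRL siFEM1B replicate 3. Lgals3bp gave 0.39 ± 0.12 (adjusted p = 0.0506), and its adjusted p was 0.0409 with DESeq2, 4.30e-04 with no low-count filter, 0.00175 without sgBACH1 siFEM1B replicate 2, 0.0325 without sgBACH1 siCTRL replicate 2, 0.0386 without sgCTRL siFEM1B replicate 1 and 0.0426 without sgCTRL siCTRL replicate 1. For the other 36 members a difference in the siFEM1B effect was not detectable at this depth and number of libraries.

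Of the interferon genes themselves, 19 were looked up and none had enough counts to test. 11 were at 0 in all 12 libraries, and the highest count of any in 1 library was 11. Summed over the 19, each library held 0 to 6 counts in sgBACH1 cells with siFEM1B, 2 to 6 in sgBACH1 cells with siCTRL, 10 to 14 in sgCTRL cells with siFEM1B and 8 to 10 in sgCTRL cells with siCTRL.

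The receptors, kinases and transcription factors of the pathway had median changes nearer 0 than the members. Of 18 tested, 11 (61.1%) were lower and 5 (27.8%) higher in sgBACH1 cells under siFEM1B (median log2 fold change -0.25), against 26.4% lower and 28.2% higher of all tested genes. Under siCTRL, 8 (44.4%) were lower and 3 (16.7%) higher (median -0.12), against 26.3% and 24.2% of all tested genes. With siFEM1B, 11 (61.1%) were higher and 1 lower in sgBACH1 cells, and likewise 11 and 1 in sgCTRL cells, where 21.9% and 22.1% of all tested genes were higher. The 6 with the highest mean CPM were Jak1, Stat3, Jak2, Ifnar1, Ifngr1 and Irf2. Stat3, which conveys cytokine signals of the interleukin-6 family, was lower in sgBACH1 cells, at -0.54 ± 0.07 (adjusted p = 1.13e-06) under siFEM1B and -0.55 ± 0.07 (adjusted p = 8.07e-07) under siCTRL. Jak2, a kinase of the interferon gamma receptor, was higher, at 0.35 ± 0.08 (adjusted p = 9.93e-04) under siFEM1B and 0.51 ± 0.08 (adjusted p = 2.16e-05) under siCTRL. Ifnar1, a chain of the type I interferon receptor, was lower under siFEM1B (-0.32 ± 0.07, adjusted p = 4.42e-04) and gave -0.12 ± 0.07 (adjusted p = 0.149) under siCTRL.

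A further list held 10 sensors, adaptors, kinases and factors between nucleic acid sensing and interferon transcription. Irf3 is in this list and also in the list above. Of these 10 genes, 7 were lower and 3 higher in sgBACH1 cells under siFEM1B. Of all tested genes 26.4% were lower and 28.2% higher there, so that the count of higher genes was near that background. Under siCTRL 6 were lower and 1 higher, against 26.3% and 24.2% of all tested genes. With siFEM1B, 7 were higher and 1 lower in sgBACH1 cells, where 21.9% of all tested genes were higher and 19.8% lower. In sgCTRL cells 5 were higher and 1 lower, against 22.1% and 22.9%. Tmem173 (STING, the adaptor downstream of cGAS) measured 30.7, 29.8 and 36.0 CPM with siFEM1B and 16.5, 15.3 and 15.2 CPM with siCTRL in sgBACH1 cells, against 162, 133 and 129 CPM with siFEM1B and 97.5, 104 and 104 CPM with siCTRL in sgCTRL cells. All groups were apart, at -2.14 ± 0.09 (adjusted p = 7.60e-14) under siFEM1B and -2.70 ± 0.09 (adjusted p = 3.91e-15) under siCTRL for genotype and 1.04 ± 0.10 (adjusted p = 8.91e-08) in sgBACH1 cells and 0.48 ± 0.08 (adjusted p = 5.57e-05) in sgCTRL cells for siFEM1B. The siFEM1B effect was larger in sgBACH1 cells, by 0.56 ± 0.12 (adjusted p = 0.0128). Mavs, the adaptor of RIG-I and MDA5, was lower in sgBACH1 cells, at -0.47 ± 0.06 (adjusted p = 5.64e-07) under siFEM1B and -0.62 ± 0.06 (adjusted p = 1.19e-08) under siCTRL, while Irf3, the factor that both pathways activate, was higher, at 0.44 ± 0.07 (adjusted p = 3.65e-05) under siFEM1B and 0.21 ± 0.07 (adjusted p = 0.0189) under siCTRL.

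Of 59 further interferon-stimulated genes outside the 42, 45 were tested. In sgBACH1 cells 36 (80.0%) were lower and none higher under siFEM1B (median log2 fold change -1.62), against 26.4% and 28.2% of all tested genes. Under siCTRL 35 (77.8%) were lower and 2 higher (median -1.80), against 26.3% and 24.2%. Of these 45 genes 12 had 10 or more counts in fewer than 3 sgBACH1 libraries, and of the other 33, 25 were lower under siFEM1B (median -0.82) and 23 under siCTRL (median -0.74). With siFEM1B, 20 (44.4%) were higher and 2 lower in sgBACH1 cells (median 0.46), against 21.9% and 19.8% of all tested genes. In sgCTRL cells 25 (55.6%) were higher and 1 lower (median 0.48), against 22.1% and 22.9%. Ifitm1, which blocks virus entry at membranes and has close relatives among which reads could be split, measured 10.6, 8.74 and 11.3 CPM with siFEM1B and 5.21, 3.29 and 2.63 CPM with siCTRL in sgBACH1 cells, against 136, 170.4 and 176 CPM with siFEM1B and 165, 163 and 189.7 CPM with siCTRL in sgCTRL cells. It was lower in sgBACH1 cells, at -3.97 ± 0.13 (adjusted p = 4.25e-15) under siFEM1B and -5.55 ± 0.15 (adjusted p = 1.32e-16) under siCTRL, and siFEM1B gave 1.48 ± 0.19 (adjusted p = 4.21e-06) in sgBACH1 cells and -0.10 ± 0.10 (adjusted p = 0.451) in sgCTRL cells. The difference between these siFEM1B effects was 1.58 ± 0.22 (adjusted p = 2.96e-04). Ifitm1 fell in sgBACH1 cells by far more than the median gene of this list. Ifitm2 had the highest counts of the list. With siCTRL it held 3352 to 3702 counts per library in sgBACH1 cells and 4599 to 5159 in sgCTRL cells. With siFEM1B it held 4822 to 5952 and 6305 to 6351. Isg20, an exonuclease, and Ifi204, a DNA-binding protein named after its values were seen, were the 2 called higher in sgBACH1 cells under siCTRL. Isg20 gave -0.02 ± 0.11 (adjusted p = 0.908) under siFEM1B and 0.53 ± 0.11 (adjusted p = 5.60e-04) under siCTRL, and Ifi204 gave 0.12 ± 0.06 (adjusted p = 0.0941) under siFEM1B and 0.40 ± 0.06 (adjusted p = 1.41e-05) under siCTRL.

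The ISRE core GAAANNGAA was more frequent in the members' promoters than in those of all tested genes. RefSeq windows of GRCm38.p6, from 250 bases before to 50 after a start site, were found for 31 of the 39 tested members, and a gene counted once if any of its windows matched on either strand. The core was present in 19 of 31 members (61.3%), against 8.38% of 9792 tested genes with a window. The members were listed as interferon-stimulated genes, so a high share of the ISRE core was partly fixed by that choice. The GAS letters TTCNNNGAA, which can overlap the ISRE core, were present in 7 members (22.6%), against 8.19% of tested genes. The letters TGACNNNGC, the core of the antioxidant response element that BACH1 binds, were present in 6 members (19.4%), against 17.1% of tested genes. These matches describe letters in the windows and are no sign of binding.

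Members with and without the ISRE core were lower in sgBACH1 cells. Under siCTRL the 19 with the core had a median log2 fold change of -2.497, all called lower. The 12 without it had -1.56, with 11 called lower. Oas1a, Trim30a, Rsad2, Gbp2, Gbp3 and Ifi44 hold the core and passed the count minimum only through sgCTRL cells. No member listed without the core did so. The medians therefore do not show whether the fall was deeper with the core. With siFEM1B the medians were 0.33 with the core and 0.41 without in sgBACH1 cells, and 0.38 with the core and 0.33 without in sgCTRL cells. Slfn2, with no match, gave -4.60 ± 0.11 in sgBACH1 over sgCTRL cells under siCTRL, and Ifit1, with 3 matches, gave -4.44 ± 0.21.

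**Figure D5:**
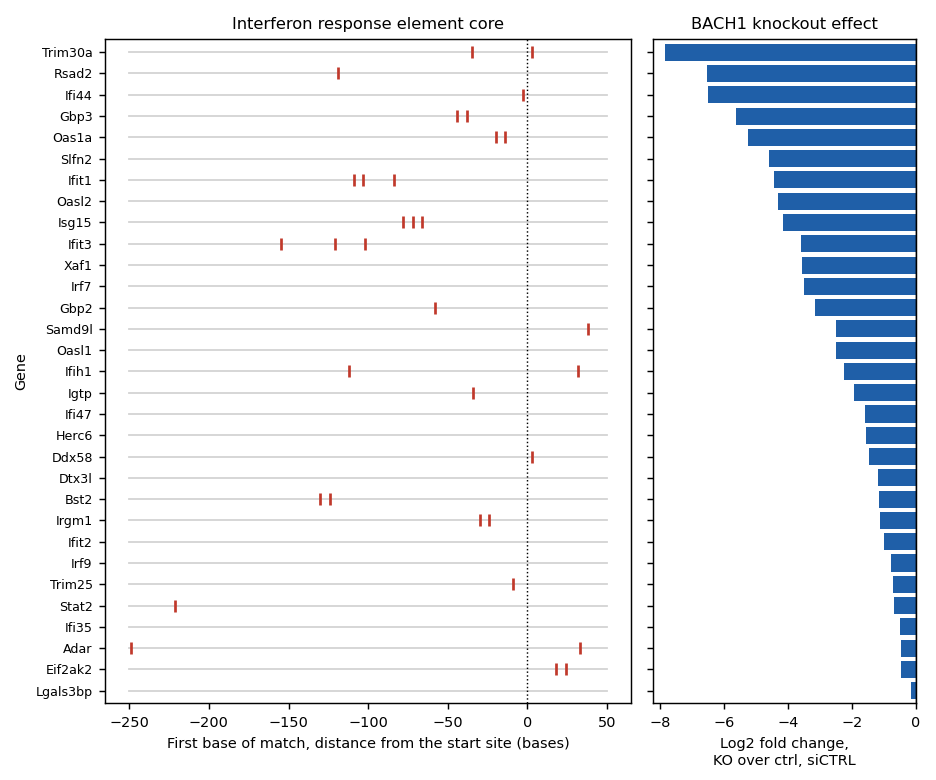
Left, position of each match to the ISRE core, in bases from the start site, for the 31 members with a promoter window; right, log2 fold change of the same genes in sgBACH1 over sgCTRL cells under siCTRL. Most matches lie within 150 bases before the start, bars reach left of 0 with or without a match, and bars of genes with 3 or fewer counts in a group depend on the prior count.

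The tested members lay on 14 chromosomes, with 9 on chromosome 11 and 5 on chromosome 16. Medians of all genes by chromosome differed between the lines, between -0.28 on chromosome 12 and 0.44 on chromosome 19 under siCTRL. With the median of its own chromosome removed from each gene, 38 members were lower under each siRNA, with a median log2 fold change of -2.35 under siFEM1B and -2.501 under siCTRL.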

How the data were processed

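Poly(A) RNA of 12 libraries, 3 in each of 4 groups, was sequenced with a stranded mRNA kit, per the labels' protocols. The values are whole-number counts per gene symbol, deposited by the authors without normalization. The submitters' processing notes name Subread, featureCounts 1.6.4, SAMtools 1.9, DESeq2 1.26.0 and mm10 with no roles, and neither annotation nor strand setting is given in the sources used here.

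Counts were scaled with TMM factors (0.989 to 1.01), and genes were kept with filterByExpr at a minimum count of 10. Differences were tested with edgeR 4.0.16 (R 4.3.3) by the two-sided quasi-likelihood test, in 1 model with a mean for each group and 8 residual degrees of freedom. Calls rest on p-values adjusted over all 13281 tested genes by the Benjamini-Hochberg method, at a threshold of 0.05. Every adjusted p is from this test unless another tool is named. Standard errors are approximate and come from the size of the log2 fold change over the root of its F statistic. CPM is the count scaled to library size with these factors, with no correction for gene length. A group with no counts was set against a floor of 3 counts over the group, and intervals at 95% are exact and cover counting error only. The script was tested on simulated counts. Replicates differed beyond sampling noise (chi-square over degrees of freedom 2.504 to 13.7), and each library counted as 1 sample.

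The members and the pathway lists were chosen with earlier results of these data known. Any member may be named. Every library's value is given for 13 members of set roles, for the 3 largest rises and falls among called members of each comparison and for exceptions to the fall in sgBACH1 cells. Other genes named are up to 6 per pathway list, by mean CPM, beside Bach1, Fem1b and Hmox1. Exon overlaps are from GENCODE M21 and positions from RefSeq on GRCm38.p6, the assembly that mm10 denotes. Alternatives were DESeq2 1.42.0, RLE size factors, other low-count filters, each library left out, the replicate number as a block, only the 6 libraries compared and chromosome medians removed. Leaving out members that share exons with a tested gene was added after seeing the data. No pairing of the libraries by replicate number was seen.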

Additional observations from a re-analysis of the deposited data

Results flagged for a closer look

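For Igtp and Irgm1, immunity-related GTPases, the siFEM1B effect differed between the genotypes by the test of the difference itself. The log2 effect in sgBACH1 cells minus that in sgCTRL cells was 0.80 ± 0.23 (adjusted p = 0.0457) for Igtp and 0.38 ± 0.11 (adjusted p = 0.04996) for Irgm1. The call was lost in 11 of 17 alternatives for Igtp and in 13 of 17 for Irgm1, among them the replicate block and RLE size factors. In sgBACH1 cells all 3 siFEM1B libraries were above all 3 siCTRL libraries for both genes, and for Igtp this also held in sgCTRL cells. Of all tested genes 3.48% were called higher in this test, and the members' share of 2 in 39 (5.13%) was near that.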

How the results depend on the processing

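Fitted with DESeq2, the counts of members called lay within 1.5 times those of edgeR in all 5 comparisons, and no called member changed sign under any alternative. Of the values not called, 20 changed sign: 5 of the siFEM1B effects in sgBACH1 cells, 5 of those in sgCTRL cells and 10 of the differences between them. With no low-count filter, which brings in Cmpk2, Gbp7 and Sp100, the members' median log2 fold change in sgBACH1 over sgCTRL cells was -2.504 under siFEM1B and -2.37 under siCTRL. Without the members that share exons with a tested gene, chosen after seeing the data, these medians were -2.72 and -3.21. The shift follows from the change of members.

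Leaving out 1 library at a time gave medians of -2.65 to -2.28 for sgBACH1 over sgCTRL cells under siFEM1B, with 0 to 1 members higher. For siFEM1B over siCTRL in sgBACH1 cells it gave medians of 0.42 to 0.61, with 1 to 3 members lower. For the difference in siFEM1B effect it gave 0 to 3 members higher. That last count was 0 with RLE size factors, 1 with genes of 10 or more counts in at least 3 libraries and 1 without the exon-sharing members. The cause of these shifts was not tested.

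No pairing by replicate number was seen. None of 18 pairs of same-numbered libraries had deviations correlated above 0.1 (range -0.115 to 0.079), and 2 of 12 libraries correlated best with their own number. With 3 libraries per group, this check cannot exclude that same-numbered libraries were prepared together. With the replicate block, 0 members were called higher in the difference test, and the counts in the other comparisons stayed at 38 lower under each siRNA, 21 higher and 2 lower in sgBACH1 cells, and 26 higher and 3 lower in sgCTRL cells. Calls between genotypes held in every alternative that tested the member for 37 of 38 members under siCTRL and 38 of 39 under siFEM1B. Calls with siFEM1B over siCTRL held likewise for 18 of 23 in sgBACH1 cells and 23 of 29 in sgCTRL cells. Usp18, counted among those 18, was not tested with only the 6 libraries compared.

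Depth limits what can be said of members near 0 in sgBACH1 cells, where 1 count is worth 0.0462 to 0.0604 CPM. For Oas1a, Trim30a, Mx2, Rsad2 and Ifi44 an siFEM1B effect there was not detectable.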
